A study of Zea mays with 48 samples.

Results

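The subject is a set of 43 probes, of 3585 on the arrays, whose signal in maize endosperm differed between the reciprocal hybrids of UH301 and UH005 while the inbred parents differed little on average. Endosperm is the nutritive tissue of the kernel, formed when a central cell of the seed parent is fertilised, and it carries more maternal than paternal genome copies. Reciprocal hybrids hold the same alleles with the seed and pollen parent exchanged, so a gene can differ between them through genome dosage, through imprinting (expression that depends on the parent an allele came from) or through the seed parent's own tissues. A reciprocal difference in a transcript that the inbreds express alike is the pattern that comparing the inbreds alone would not show.

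RNA came from endosperm or embryos taken 6 days after pollination from glasshouse plants. In cross 301/005 the genotypes were the hybrids 301x005 and 005x301 and the selfed inbreds 301 and 005. In cross 301/250 they were the hybrids 301x250 and 250x301 and the selfed inbreds 301 and 250. The first-named line is taken as the seed parent, by convention. Each replicate was a loop of 4 2-colour arrays in which each reciprocal hybrid was hybridised against each inbred, with 4 loops per tissue for 301/005 and 2 per tissue for 301/250, 12 loops and 48 arrays in all. The cDNA was PCR-amplified before labelling, which can change ratios between transcripts. The values are within-tissue ratios, so levels of endosperm or embryo markers could not be used to check the dissections. Nothing in the sources used here states which tissues of the seed parent could remain on the dissected endosperm.

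All differences below are on the log2 scale. The reciprocal difference is 301x005 minus 005x301, the inbred difference is UH301 minus UH005, and the mid-parent difference is the mean of both hybrids minus the mean of both inbreds. The direction of the deposited ratio is not stated in the labels and was taken as channel 1 over channel 2. If it ran the other way, every sign here would turn.

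In 301/005 endosperm, 2226 probes had both differences in 3 or more loops, and 739 of them had a reciprocal difference of the same sign in every loop. Of those, 203 (9.12% of 2226) averaged 0.5 or more in size, 141 with the positive and 62 with the negative sign. For 160 of the 203 the inbreds differed by 0.4 or more, and in 141 of these the inbred and reciprocal differences pointed the same way. The other 43 are the probes described here. In 16 of them 301x005 was higher, with a median reciprocal difference of 0.63 and a range of 0.53 to 1.06. In 27 of them 005x301 was higher, with a median of -0.60 and a range of -0.75 to -0.50. The probes were chosen by these reciprocal and inbred differences, which therefore carry no test.

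**Figure D1:**
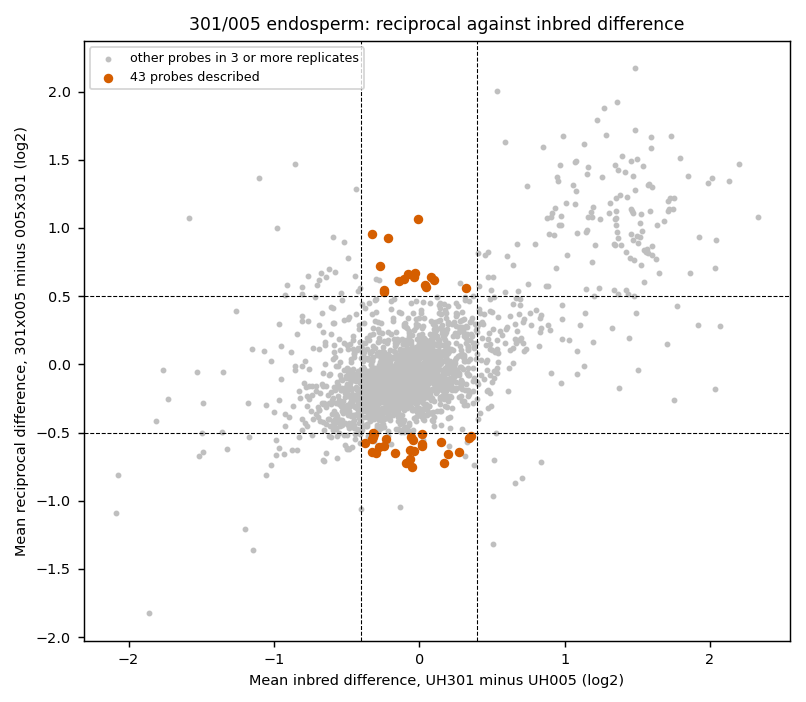
Mean reciprocal difference (y, log2) against mean inbred difference (x, log2) in 301/005 endosperm for the 2226 probes with values in 3 or more loops. Orange points are the 43 probes described, between the vertical dashed lines at -0.4 and 0.4 and beyond the horizontal ones at 0.5 and -0.5. Most of the large reciprocal differences lie outside the vertical lines, at the upper right, where the inbreds differ in the same direction.

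The limits cut through a continuous cloud. The probes just inside the reciprocal limit were CE1 at -0.50, LG12 at -0.51 and PF1 at -0.51, and those just outside it were KC6 at -0.50, NE9 at -0.50 and S_CC1090 at -0.49. Just inside the inbred limit lay PD4 at -0.37, P_FIE2 at 0.36 and RF1 at 0.34, and just outside it S_CC11 at -0.41, OH1 at 0.41 and TD12 at -0.41. The median reciprocal difference of the 2226 probes was -0.09, so the negative limit lay nearer to the middle of the distribution than the positive one. With each array centred and scaled to a common spread, 39 probes met the rule, 20 higher in 301x005 and 19 higher in 005x301, where the deposited values gave 16 and 27. Of the 39, 26 were among the 43.

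A low mean inbred difference was not the same as steadily similar inbreds. In 10 of the 43 probes every loop's inbred difference was under 0.4 in size, while in 11 probes it reached 1 or more in some loop and averaged out. The median standard deviation (SD) of the inbred difference over loops was 0.48 for the 43 probes and 0.32 for the 2226. The reciprocal difference was also uneven. It was at or over 0.5 in size in every loop for 3 probes, and under 0.25 in at least 1 loop for 25. Replicate 3 held the largest reciprocal difference of 19 of the 43 probes with a value in it. For replicates 1, 2 and 4 it was 9 of 40, 8 of 37 and 7 of 18.

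Loops also allow a comparison within each array set. The reciprocal difference can be taken from the arrays against UH301 or from those against UH005, and without array error these agree. Over the complete loops they had the same sign on average in 35 of the 43 probes and opposite signs in 8, and in 13 probes every such comparison in every loop had the same sign. The rule chose the probes by the mean of both estimates, which favours a shared sign, so these counts are no independent check. The same counts were not made for all 2226. The distance of either estimate from their mean (loop closure) had a median size of 0.36, 0.47, 0.22 and 0.24 in replicates 1 to 4 for the 43 probes, against 0.15, 0.36, 0.11 and 0.20 for the 2226. Loop closure was thus larger for these probes than for all 2226 in each of the 4 replicates. Replicate 4 had a value for 41.9% of the 43 probes and for 77.6% of the 2226.

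**Figure D2:**
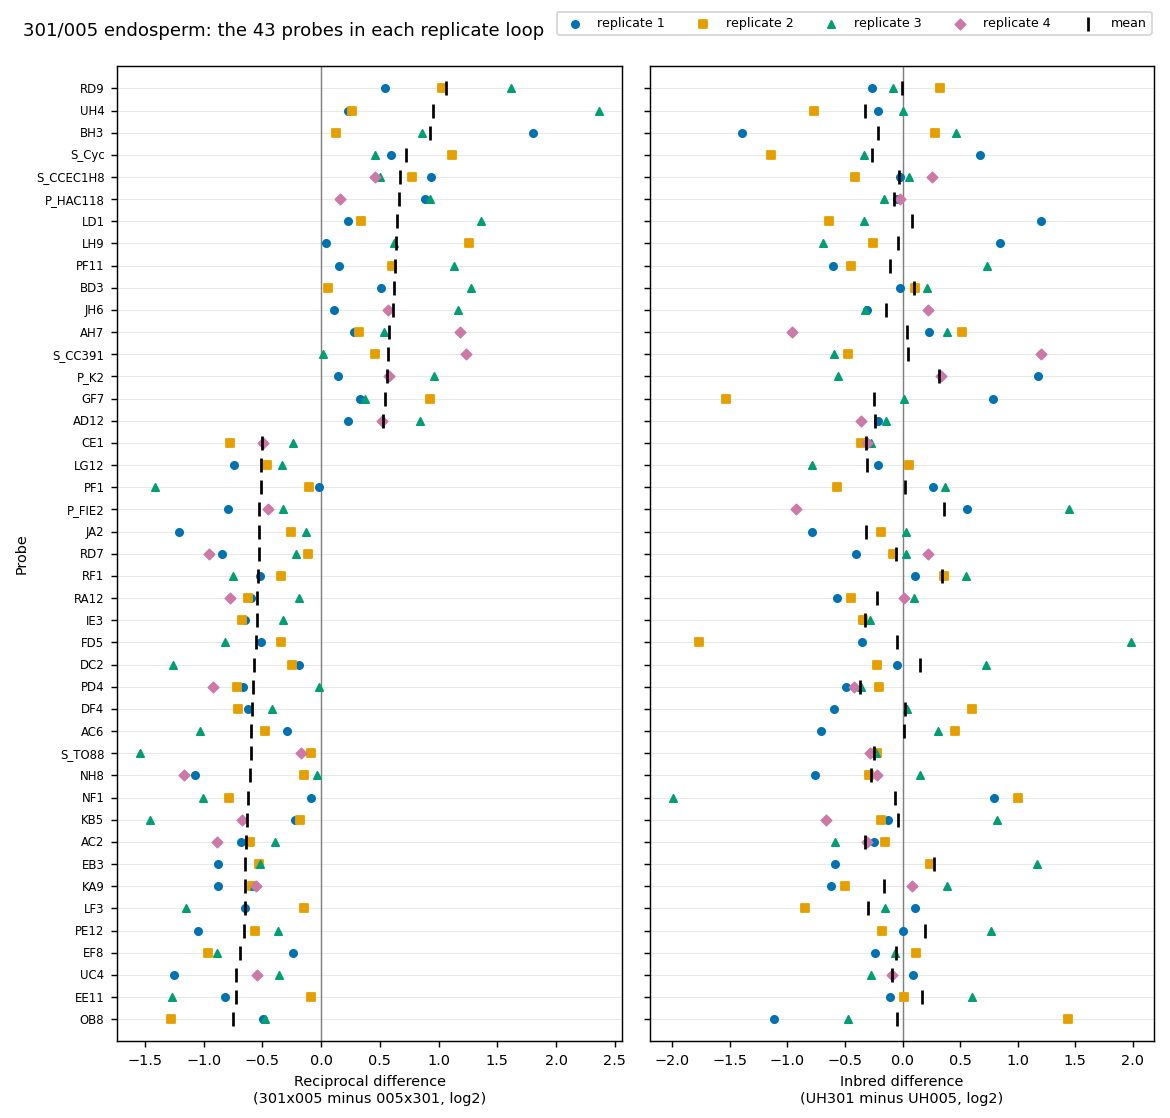
Each of the 43 probes in 301/005 endosperm, 1 row per probe ordered by mean reciprocal difference, with 1 coloured point per loop and a black bar for the mean (log2). On the left every row stays on its own side of 0, as the rule requires, with means between -0.75 and 1.06. On the right several rows with a mean inbred difference near 0 hold loops far from it on both sides.

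Among the 16 probes higher in 301x005, P_HAC118 had similar inbreds in every loop. The file gives its name but no role, and the gene table used here has no entry for it, so none is given. Its reciprocal difference was 0.89, 0.93 and 0.16 in replicates 1, 3 and 4, and its inbred difference -0.04, -0.16 and -0.02. The arrays against UH301 gave 0.66 on average, as did those against UH005, and each of these comparisons was positive in every loop. The equal averages hid a disagreement, since loop closure was -0.62, 0.60 and 0.02 in replicates 1, 3 and 4. The estimates against UH301 and UH005 thus differed in opposite directions in replicates 1 and 3. Replicate 2 has no value because 2 of its arrays lack all probes whose IDs begin with P_.

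S_CCEC1H8 was measured in all 4 loops, with reciprocal differences of 0.93, 0.78, 0.50 and 0.46 and inbred differences of -0.02, -0.41, 0.06 and 0.26. Its loop closure was 0.18, -1.24, -0.002 and 0.38. In replicate 2 it was larger in size than the reciprocal difference, so the estimates against UH301 and UH005 had opposite signs there. The lowest reciprocal difference of S_CCEC1H8 exceeded its largest inbred difference, 0.41 in size, by little. S_Cyc, whose file name is not resolved to a gene here, measured 0.59, 1.11 and 0.46 in replicates 1 to 3. Its inbreds went opposite ways, at 0.68, -1.15 and -0.34.

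The probes with the highest means in this direction were less even. RD9, at 1.06 on average, measured 0.54, 1.03 and 1.62, with inbred differences of -0.27, 0.32 and -0.08. UH4, at 0.95, rested on replicate 3 with 2.37, against 0.23 and 0.27 in the other loops, and the arrays against UH301 gave 0.29 while those against UH005 gave 1.62. BH3, at 0.93, measured 1.80, 0.13 and 0.86. RD9 was thus the only one of these 3 probes above 0.5 in every loop. In each of the 3, loop closure was larger in size than the reciprocal difference in some loop. For RD9 this was replicate 1, with a loop closure of -1.10 beside the 0.54. IDs such as these are not paired with a gene in the files, so no identity or role is given for them.

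Of the 3 probes of the P set, P_K2 was also higher in 301x005, by 0.56 on average, with inbred differences that reached 1.18 in replicate 1. The remaining P-set member, P_FIE2, lay on the other side.

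P_FIE2 carries the name of fie2, a maize homologue of the Arabidopsis gene FIE, which encodes a subunit of a Polycomb repressive complex that methylates histone H3. Polycomb genes of this kind restrain endosperm growth in Arabidopsis, and maize fie genes have been studied for expression that depends on the parent of origin. P_FIE2 was higher in 005x301, with a reciprocal difference of -0.79, -0.33 and -0.46 in replicates 1, 3 and 4. Its inbred difference changed sign between loops, at 0.56, 1.44 and -0.93. The arrays against UH301 gave a reciprocal difference of 0.55 and those against UH005 one of -1.60, and loop closure was 0.42, 1.12 and 1.70, larger than the reciprocal difference itself in replicates 3 and 4.

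The arrays hold further probes with FIE names. P_FIE2_5 measured -2.18 in the single 301/005 endosperm loop with a value, and -0.25 and -2.28 in the 301/250 endosperm loops. P_FIE2_ had no complete loop in 301/005 endosperm and measured -0.53 in 1 loop of 301/250 endosperm. P_FIE1, named for the related gene fie1, measured -0.05 in the single 301/005 endosperm loop with a value, and -0.34 and -0.35 in 301/250 endosperm. All these values were below 0, that is lower in the 301-seeded hybrid, whereas P_FIE2 itself measured -0.15 and 0.76 in 301/250 endosperm. Which transcript each probe detects is not resolved here.

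Among the 27 probes higher in 005x301, KA9 was the most even of those with values in all 4 loops. It measured -0.88, -0.59, -0.57 and -0.55 in the 4 loops, with an SD of 0.15. Its loop closure was 0.21, 0.02, -0.23 and -0.59, in replicate 4 larger in size than the reciprocal difference. AC2 measured -0.64 on average and was below 0 against each inbred in every loop, as were OB8, LF3, EB3, KB5, DF4, AC6, IE3, RA12 and LG12. IE3 had the same small inbred difference throughout, -0.35, -0.35 and -0.29, beside reciprocal differences of -0.64, -0.68 and -0.32.

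OB8 had the most negative mean, at -0.75, from -0.49, -1.28 and -0.48, but its inbred difference was -1.12, 1.44 and -0.48. EE11 measured -0.82, -0.08 and -1.27. UC4 measured -1.25, -0.36 and -0.55 in replicates 1, 3 and 4, beside inbred differences that stayed under 0.4 in size. Its loop closure was -1.10, -1.49 and 0.94, larger in size than the reciprocal difference in replicates 3 and 4. The arrays against UH301 gave -1.27 and those against UH005 gave -0.17. EF8, at -0.24, -0.96 and -0.88, also had similar inbreds in every loop, at -0.24, 0.12 and -0.07. For PE12, at -0.66 on average, the arrays against UH301 gave 0.06 and those against UH005 gave -1.38. LF3, at -0.65 on average, varied from -1.15 in replicate 3 to -0.14 in replicate 2.

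The mid-parent difference tells which of the reciprocal hybrids lay farther from the mean of the inbreds. It is orthogonal to the contrasts that chose the probes, although it uses the same arrays, and it was fitted with a dye term. It could be estimated for 28 of the 43 probes, 11 higher in 301x005 and 17 higher in 005x301. Limma's moderated test with Benjamini-Hochberg adjustment left 0 of 2076 probes (0.0%) past the threshold, and 191 (9.2%) had an unadjusted p under 0.05. Of the 28 probes 0 were called and 7 (25.0%) had an unadjusted p under 0.05. An array with a large error moves both the mid-parent and the reciprocal difference, and loop closure was larger for the 43 probes than for all 2226. The 25.0% beside the 9.2% is therefore a description and no independent comparison.

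P_FIE2 had the lowest p of those, with both hybrids below the mid-parent. Without the dye correction, 005x301 averaged -1.33 against UH301 but 0.11 against UH005. The hybrids together measured -0.76 ± 0.14 (SE, n = 3 loops, limma adjusted p = 0.378), which put 301x005 at -1.02 and 005x301 at -0.50. PE12 likewise had both hybrids below, with 301x005 at -1.35 and 005x301 at -0.70, from a mid-parent difference of -1.03 ± 0.42 (SE, n = 3 loops, limma adjusted p = 0.540). S_Cyc had both above, with 301x005 at 1.01 and 005x301 at 0.29, from 0.65 ± 0.17 (SE, n = 3 loops, limma adjusted p = 0.431). None passed the adjusted threshold. EE11 had 301x005 at -0.70 and 005x301 at 0.02.

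In 19 of the 28 probes the reciprocal hybrids lay on opposite sides of the mid-parent. Where 301x005 was higher, it was the hybrid farther from the mid-parent in 7 of 11 probes, always above it. In the other 4 005x301 was farther, always below. RD9 was 1 of those 4, with 301x005 at 0.38 and 005x301 at -0.69. Where 005x301 was higher, 301x005 was farther in 10 of 17 probes, below the mid-parent, and 005x301 in 7, above it. The side follows from the sign of the reciprocal difference once the farther hybrid is known. Which hybrid is farther follows in turn from the sign of the mid-parent difference. That difference was smaller in size than its SE in many of these probes, as in RD9 (-0.15 ± 0.22, SE, n = 3 loops) and BH3 (-0.02 ± 0.10, SE, n = 3 loops). The split was not counted over all probes, and these positions carry no test.

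**Figure D3:**
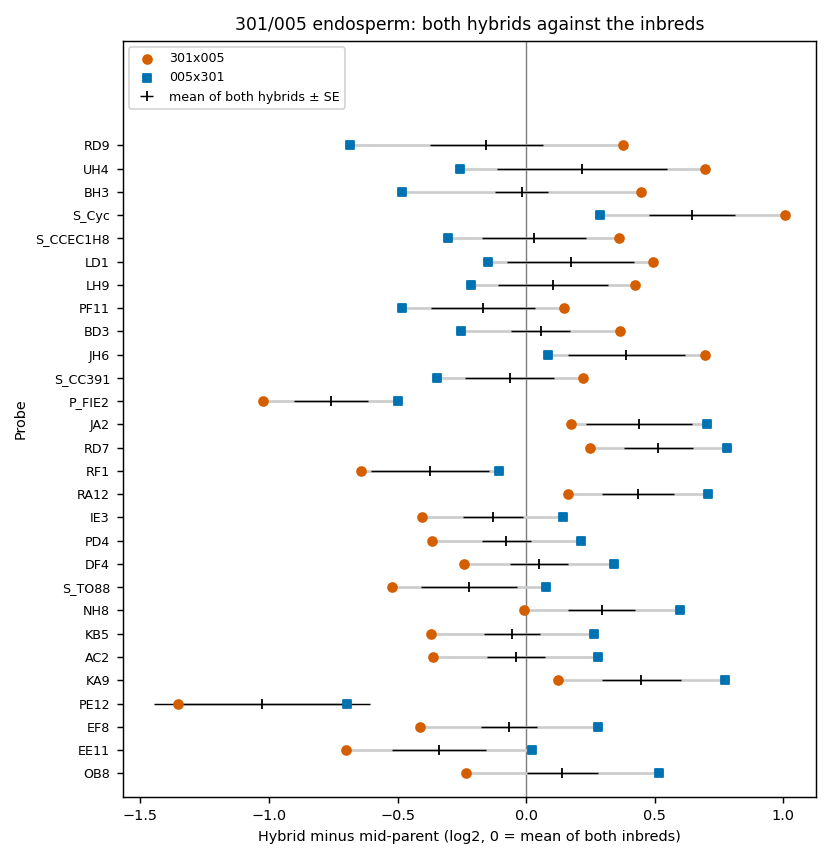
Both hybrids of 301/005 relative to the mean of the inbreds (x, log2, 0 = mid-parent) for the 28 probes with a fitted mid-parent difference, 1 row per probe in the order of the reciprocal difference. Orange circles are 301x005, blue squares 005x301, and the black bar is their mean with its SE. P_FIE2, PE12 and RF1 have both hybrids left of 0, while S_Cyc, JH6, KA9, RA12, RD7 and JA2 have both right of 0.

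The other cross shares UH301 and offers endosperm loops that the rule did not use. In 301/250 endosperm the reciprocal difference is 301x250 minus 250x301. By limma 0 of 2102 probes (0.0%) passed, and 30 (1.43%) had an unadjusted p under 0.05, and neither count included a probe of the set. Of the 43 probes 31 had some value and 20 could be tested, and 14 of the 20 had the sign they had in 301/005 endosperm. For those higher in 005x301, 8 of 11 were below 0, against 45.1% of all tested probes, with a median of -0.06. For those higher in 301x005, 6 of 9 were above 0, against 54.9% of all tested probes, with a median of 0.05. The median size was 0.17 for the 20 probes and 0.10 for all.

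Within the 27 probes higher in 005x301 a small group was also low in both loops of 301/250 endosperm. Of the 13 with both loops in 301/250 endosperm, 5 had both below 0 with a mean at or under -0.5, a pattern shown by 1.64% of the 2436 probes with both loops. They were KA9, RA12, JA2, RD7 and EB3. Their means had to reach -0.5 in both crosses, so a like size follows in part from the limits. The 1.64% is no matched share, since the median size was 0.17 for the tested probes of the set and 0.10 for all. In replicate 2 taken alone, 2 of the 13, KA9 and EB3, lay at or under -0.5. JA2, RD7 and EB3 are not covered by the rule for named probes and were picked once their values were known. BH3, of the opposite list, met the same limits with the sign turned from that of 301/005, and 0 probes of the set had both loops above 0 with a mean at or over 0.5 (2.42% of all).

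KA9 measured -0.63 in each 301/250 loop, against a mean of -0.65 in 301/005. RA12 measured -0.96 and -0.14 there, mean -0.55, and its 301/005 values were -0.59, -0.63, -0.19 and -0.77, mean -0.55. RD7 measured -0.74 and -0.41, mean -0.57, and its 301/005 values were -0.84, -0.11, -0.22 and -0.95, mean -0.53. JA2 and EB3 showed the same sign in all their loops of both crosses. JA2 measured -0.62 and -0.43 in 301/250, and -1.21, -0.26 and -0.12 in 301/005. EB3 measured -0.50 and -1.05 in 301/250, and -0.88, -0.53 and -0.52 in 301/005. Its -1.05 rested on 1 array, 250x301 over 301 at 2.72, and came with a loop closure of -1.50. The arrays against UH250 pointed the other way in that loop, with 301x250 at 0.86 and 250x301 at 0.41. KA9 was -0.63 ± 0.39, RA12 -0.55 ± 0.34 and JA2 -0.53 ± 0.37 in the fit of 301/250 endosperm (SE, n = 2 loops each, limma adjusted p = 1.00 for each), and RD7 and EB3 had too few loops outside the rule's for a test.

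The position of the hybrids of KA9, RA12, RD7 and JA2 was alike in both crosses, though their spacing is the reciprocal difference that the limits had set. In 301/005 the hybrid seeded by the other line, 005x301, lay 0.77 above the mid-parent for KA9, 0.71 for RA12, 0.78 for RD7 and 0.70 for JA2, while 301x005 lay 0.12, 0.16, 0.25 and 0.17 above it. In 301/250 the 301-seeded hybrid lay 0.11, 0.19, 0.11 and 0.12 above it, and 250x301 lay 0.74, 0.74, 0.68 and 0.65 above. EB3 had no fitted position in 301/005. Its loop means there, without the dye correction, put 301x005 at -0.63 and 005x301 at 0.01, unlike the other 4 probes. In 301/250 it had 301x250 at 0.07 and 250x301 at 0.84. The 0.84 includes the array at 2.72. The inbred difference of KA9, RA12, RD7 and JA2 averaged -0.49, -0.46, -0.41 and -0.65 in 301/250 (UH301 minus UH250), and -0.16, -0.23, -0.06 and -0.32 in 301/005.

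Some values of these probes were close within single 301/005 loops and others were not. The inbred difference was -0.62, -0.57, -0.40 and -0.78 for KA9, RA12, RD7 and JA2 in replicate 1, and 0.38, 0.10, 0.03 and 0.03 in replicate 3, while EB3 had -0.59 and 1.17. The mean of the 4 hybrid ratios was 0.45, 0.60, 0.73 and 1.05 in replicate 1 and -0.23, -0.23, -0.04 and -0.16 in replicate 3, both of the same dye orientation, while EB3 had 0.02 and -0.83. The reciprocal difference in replicate 3 was -0.57 for KA9, against -0.19, -0.22 and -0.12 for RA12, RD7 and JA2. The likeness between these probes was not tested. Whether these probes detect related transcripts is not resolved here.

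S_Cyc kept its sign in 301/250 endosperm as well, at 0.19 and 0.47 (0.33 ± 0.29, SE, n = 2 loops, limma adjusted p = 1.00). P_HAC118 measured 0.36 in its single loop. RD9, at 0.32 and 0.08, stayed above 0 at a smaller size, and UH4, at 0.07 and -0.13, lay near 0. Of these 4 probes S_Cyc and RD9 were above 0 in both loops.

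Embryos of 301/005 have the same parents as the endosperm the rule used, with equal maternal and paternal genome copies. For the reciprocal difference 0 of 2117 probes (0.0%) passed limma's test, and 145 (6.85%) had an unadjusted p under 0.05. Of the 43 probes 25 could be tested, of which 0 were called and 2 had an unadjusted p under 0.05. The sign matched that of endosperm in 10 of 25 probes. Of those higher in 301x005 endosperm 5 of 10 were above 0 in embryos, against 53.8% of all tested probes, and of those higher in 005x301 endosperm 5 of 15 were below 0, against 46.2%. Turned to the endosperm sign, their median was -0.04, and the median size was 0.24 against 0.16 for all tested probes.

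Both probes with a low p pointed away from the endosperm. UH4 measured -0.42 and -0.94 in replicates 1 and 3 (-0.68 ± 0.23, SE, n = 2 loops, limma adjusted p = 0.723). JA2 measured 1.33, 1.17 and -0.18 (0.77 ± 0.30, SE, n = 3 loops, limma adjusted p = 0.723). Neither passed the adjusted threshold. EF8 kept the endosperm sign in all its loops, at -0.24, -0.10 and -0.30. KA9 measured 0.99, -0.82 and -0.14 in embryos, S_Cyc 0.39, -0.41 and -0.11, and S_CCEC1H8 0.72, -0.42 and -0.13.

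Arrays of replicates 1 and 2 of 301/005 embryo lack all P-set probes, so P_FIE2 and P_HAC118 had 1 embryo loop each, at 0.02 and 0.35. In replicates 3 and 4 alone the median turned to the endosperm sign was 0.05, and in replicates 1 and 2 alone -0.01, a split made after the data had been seen.

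The inbred difference in the same embryos was also examined, since the rule had set it low in endosperm. It averaged under 0.4 in size in 19 of 28 probes with 2 or more loops (67.9%), close to the 71.6% of all 2387 such probes. By limma 0 of 2117 probes (0.0%) passed, and 251 (11.9%) had an unadjusted p under 0.05. Of 25 tested probes of the set 0 were called and 3 had an unadjusted p under 0.05. These were S_CC391 at 0.56 ± 0.19, PF11 at -0.58 ± 0.19 and JA2 at 0.77 ± 0.30 (SE, n = 3 loops each, limma adjusted p = 0.303, 0.307 and 0.381). PF11 passed when single arrays were fitted, with and without a replicate block.

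In 301/250 embryos 0 of 1622 probes (0.0%) passed by limma, and 283 (17.4%) had an unadjusted p under 0.05. Of the 43 probes 16 could be tested, of which 0 were called and 4 had an unadjusted p under 0.05, and 11 of 16 had the endosperm sign of 301/005. Of the 7 tested probes higher in 301x005 endosperm, 6 were higher in 301x250 embryos, with a median of 0.49. Of the 9 higher in 005x301 endosperm, 5 were lower in 301x250 embryos, with a median of -0.01. All tested probes split 53.9% above and 46.1% below 0.

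All 4 probes with a low p had the endosperm sign. S_Cyc measured 0.55 and 1.60 (1.07 ± 0.29, SE, n = 2 loops, limma adjusted p = 0.184). S_CCEC1H8 measured 0.63 and 1.91 (1.27 ± 0.38, SE, n = 2 loops, limma adjusted p = 0.186). BD3 measured 2.37 and 0.60 (1.49 ± 0.41, SE, n = 2 loops, limma adjusted p = 0.186). Each of these 3 probes was higher in the 301-seeded hybrid in both loops, but the loops differed by over 1. For BD3 the 2.37 rested on 1 array, 301x250 over 301 at 4.81, with a loop closure of 2.22. In replicate 2 its loop closure was -0.66, larger in size than the 0.60. IE3, on the other side, measured -1.24 and -0.65 (-0.95 ± 0.31, SE, n = 2 loops, limma adjusted p = 0.199).

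Over the 3 cross and tissue sets that the rule did not use, 33 of the 43 probes had at least 1 set with 2 or more loops. Of these, 14 had no set in which every loop matched the sign in 301/005 endosperm, 18 had 1 such set, 1 had 2, and 0 had all 3. Among all probes with 2 or more loops in a set, every loop was above 0 in 13.1% (301/005 embryos), 34.9% (301/250 embryos) and 28.4% (301/250 endosperm). Every loop was below 0 in 15.5%, 29.2% and 23.6%. Matching sets were not counted over all probes, so the counts are a description only. The inbred difference averaged under 0.4 in size for 10 of 17 probes in 301/250 embryos (58.8%, against 75.4% of all) and for 13 of 22 in 301/250 endosperm (59.1%, against 74.3% of all).

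**Figure D4:**
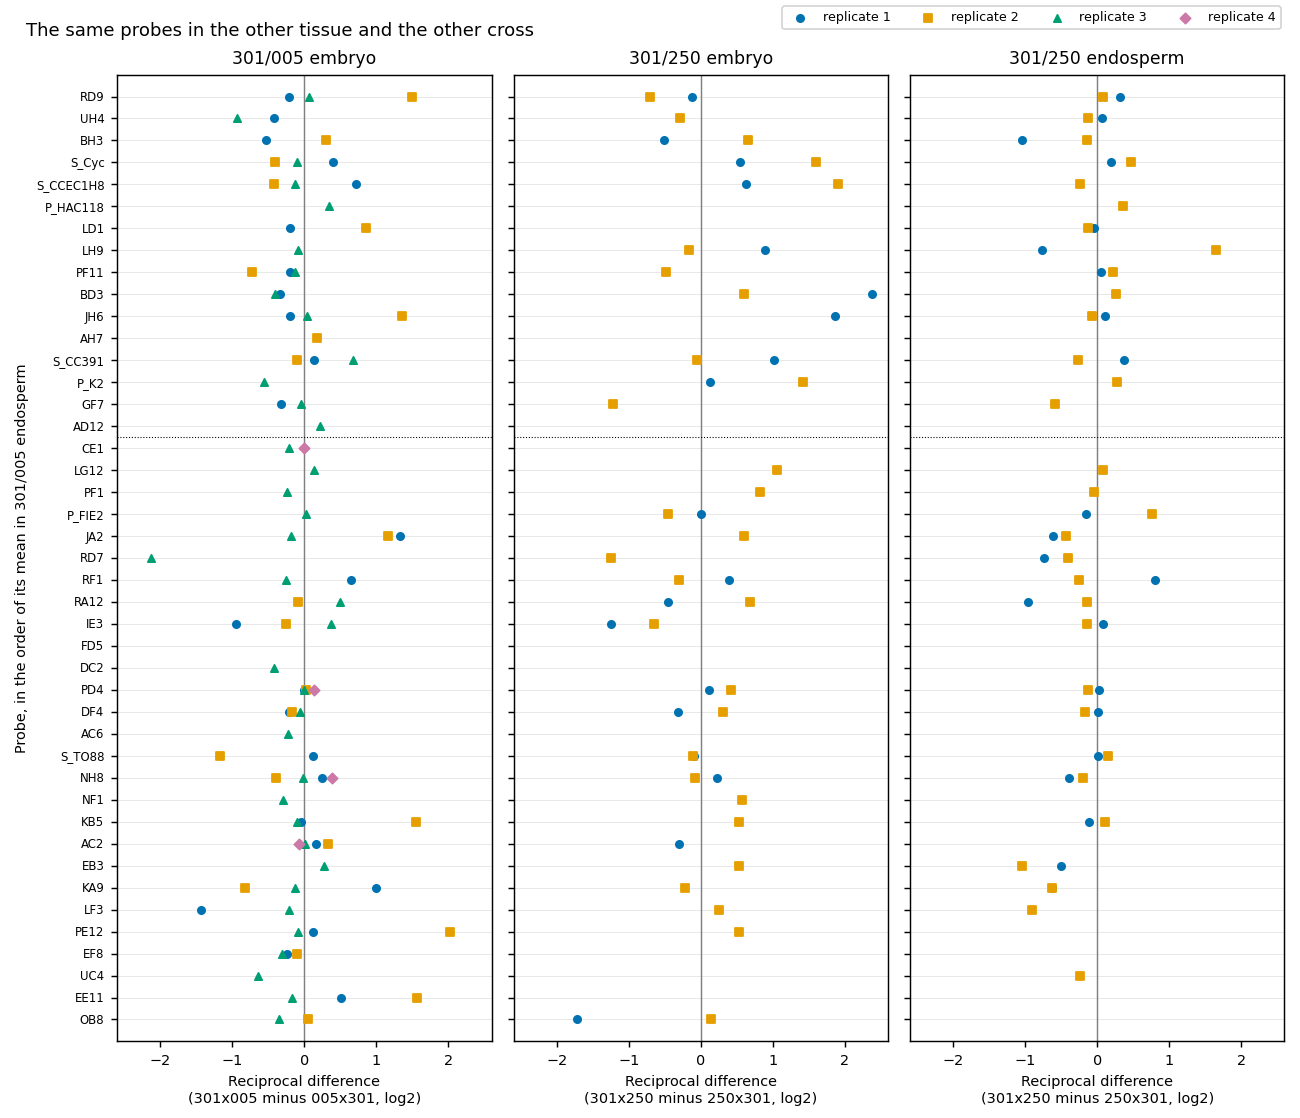
Reciprocal difference (x, log2) of the 43 probes in the 3 sets not used by the rule, in the row order of their 301/005 endosperm means, with 1 point per loop. The dotted line parts the 16 probes higher in 301x005 (above) from the 27 higher in 005x301 (below). KA9, RA12, RD7, JA2 and EB3 lie left of 0 in both 301/250 endosperm loops, while in 301/005 embryos the rows above and below the line scatter to both sides of 0.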

How the data were processed

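Per the labels, 48 2-colour hybridisations compared hybrid with inbred RNA. The values used are log ratios deposited by the authors, read here as log2. Their log base, normalization and background correction were not found in the labels or headers. No intensities were used, so the number of arrays limits the precision. An array had values for 926 to 3430 probes, with medians of -0.20 to 0.11. Odd replicates were turned so that ratios read hybrid over inbred. Of 3592 entries 7 were controls and were not used.

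Within each loop (A, 301x005 over 301; B, 005x301 over 301; C and D, the same hybrids over 005) the reciprocal difference was (A-B+C-D)/2, the inbred difference (C+D-A-B)/2 and the mid-parent difference the mean of A to D. A constant dye effect cancels in the first and second of these. Across probes, arrays of the same comparison correlated at 0.27 to 0.58 with the same dye orientation and at -0.47 to 0.42 with opposite orientations, so the mid-parent fit has a dye term, and no count of loops by sign is given for it because single-loop values hold the dye effect. The rule for named probes below read single-loop signs without that correction.

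Limma 3.58.1 (lmFit, eBayes, two-sided) in R 4.3.3 was fitted to loop values, with pandas 2.3.3 in Python 3.11.15 for the tables. The fits of reciprocal and inbred differences used the 8 loops outside 301/005 endosperm, with at least 2 loops of the set and 2 residual degrees of freedom. The mid-parent fit used all 12 loops and at least 3 residual degrees of freedom. Benjamini-Hochberg adjustment ran across every probe in a test, at a threshold of 0.05. They measure the spread between loops that the labels call biological replicates. The fits were tested on simulated data. Same-numbered replicates share a pollination day within a set, and the loop already takes this up, so single-array fits with and without a replicate block were alternatives, beside centring, scaling, complete probes and left-out replicates.

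The 43 probes and all lists were chosen with earlier results of these data known. Named are members with a gene name, the 6 largest and 6 most negative, the 3 on either side of each limit, and the 3 of the same sign in every loop with the largest values in each other set and in the mid-parent difference. Symbols were looked up in RefSeq's gene table for Zm-B73-REFERENCE-NAM-5.0, which lists fie2 as a synonym.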

Additional observations from a re-analysis of the deposited data

Results flagged for a closer look

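In 9 probes every loop of another set had the sign opposite to that in every 301/005 endosperm loop, and the difference between sets was not tested. In 301/005 embryos, where 28 probes had 2 or more loops and 4 kept their sign, BD3 averaged -0.37, GF7 -0.18, PF11 -0.35 and UH4 -0.68, all higher in 301x005 in endosperm. In 301/250 embryos, where 7 of 17 kept their sign, RD9 averaged -0.41 and PD4 0.27. In 301/250 endosperm, where 9 of 22 kept their sign, BH3 averaged -0.59, LD1 -0.092 and S_TO88 0.084. Over all probes with 2 or more loops every loop was above 0 in 13.1%, 34.9% and 28.4% and below 0 in 15.5%, 29.2% and 23.6% of probes in these 3 sets.

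KA9 stood apart within 301/005 endosperm, where replicate 1 measured -0.88 and the other loops -0.59, -0.57 and -0.55. It is 1 of 9 probes with 4 loops there. Chance marks about 1 in 20 such groups.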

How the results depend on the processing

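The make-up of the set depended on the choices behind it. It held 9 probes when values in all 4 replicates were required, 110 with the reciprocal difference taken from the arrays against UH301 alone and 84 from those against UH005 alone (each over every loop that had those arrays), of which 20 and 22 were among the 43. Without 1 replicate it held 22 to 37 probes. The smallest was 22 without replicate 1, sharing 10 with the 43, and without replicate 3 it held 28, sharing 7. Centred arrays gave 45 probes, 37 of them shared. No member was called in any test or alternative except PF11, called for the inbred difference in 301/005 embryos (1 member) when single arrays were fitted, with a replicate block and with no replicate block. Those fits called 82 and 69 of all probes there, while 5 were called with centred arrays, 4 with scaled arrays, 10 among complete probes and 18 with all 12 loops. The replicate block called 1 probe for the reciprocal difference in 301/005 embryos and changed no other reciprocal count. In 301/250 embryos 10 complete probes were called, 4 with all 12 loops and 1 to 5 without 1 replicate. The mid-parent count was 4 without the dye covariate and 25 with single arrays and no replicate block. Turned to the endosperm sign, the members' median in 301/250 embryos was 0.091 to 0.39 without 1 replicate (0.16 with both) and in 301/250 endosperm 0.086 to 0.14 (0.05 with both). The 13 probes with both 301/250 endosperm loops gave 2 to 5 at or under -0.5 without 1 replicate, and 5 with centred or scaled arrays, alternatives chosen after seeing the data. The cause of these shifts was not tested. The 2 to 4 loops per set and the gaps in the table limit the precision of every value here.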
